A study of Homo sapiens with 2 samples.

Results

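IGF2, 4 insulin-like growth factor (IGF) binding proteins, 3 receptors and the docking protein IRS1 were followed in HepG2, a liver cancer line of human origin with much of the hepatocyte programme. The cells held a SAMD4B cassette that is turned on by doxycycline (Dox). SAMD4B is an RNA-binding protein related to Smaug of flies. The 9 genes are IGF2, IGFBP1, IGFBP2, IGFBP3, IGFBP4, IGF1R, IGF2R, INSR and IRS1. They were chosen by name, with earlier results of these data known, out of 34237 genes given a value. One library was made from cells grown with 1 µg/ml Dox for 48 h, and 1 from cells of the same line grown without Dox. Both groups carry the cassette, and whether the line is a single clone is not given in the sources used here. Polyadenylated RNA was sequenced, and the authors deposited the abundance of each transcript as TPM, which is corrected for transcript length and scaled to a fixed total per library. With 1 library per group there is no replicate check, so no p-value is given and each difference is one between these 2 libraries. An effect of Dox itself and an effect of SAMD4B cannot be told apart in this design.

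IGF2 is a growth factor of fetal tissues that many liver tumours make again. It signals through the receptor tyrosine kinases IGF1R and INSR, which recruit docking proteins such as IRS1 and switch on the PI3K and AKT kinases. IGF2R, also known as the cation-independent mannose 6-phosphate receptor, has no kinase and carries IGF2 to lysosomes. The IGF-binding proteins are secreted carriers that hold IGFs away from the receptors. In the liver, IGFBP1 is a classic gene that insulin represses and that FOXO factors and cell stress induce.

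The library label was checked first. SAMD4B was at 261 TPM with Dox and 47.5 TPM without Dox, a log2 fold change of 2.44, so the library labelled with Dox held more of it. These values do not separate cassette reads from reads of the resident SAMD4B gene. The depth was estimated from the steps of the low TPM values. Over transcripts of at least 600 nt that matched the annotation used here, it came to 23454402 fragments with Dox and 18043925 without Dox. Intervals below are 95% counting intervals from these estimates. They leave out biological variation, any error in how Salmon split fragments between transcripts, and any error in the transcript lengths used. All 10 hepatocyte markers examined, ALB, AFP, APOA1 and HNF4A among them, passed a mean of 1 TPM, and they summed to 24738 TPM with Dox and 27687 TPM without Dox. Of these 10, 1 was higher and 9 were lower with Dox, none by 1.5-fold, where 53% of all genes at that mean were higher. Their median log2 fold change was -0.21, and HNF4A was at 64.5 TPM with Dox and 81.8 TPM without Dox. The 10 markers of blood, endothelial, fibroblast and bile duct cells summed to 86.6 TPM with Dox and 104 TPM without Dox. PTPRC, VWF and KRT7 were listed at 0 in both libraries, and ACTA2 alone held 36.7 TPM with Dox and 61.3 TPM without Dox. Of the 5 of these markers that passed a mean of 1 TPM, 3 were higher and 2 lower with Dox, beside the same 53% of all genes higher. PDGFRB was past 1.5-fold upward, at 7.35 TPM with Dox and 4.11 TPM without Dox, and ACTA2 downward. Of all genes at that mean, 5.32% were past the same fold upward and 3.9% downward. The part of these shifts in the results below was not tested. In bulk RNA, fewer cells of a type and less RNA per cell cannot be told apart.

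IGF2 and IGFBP1 stood out from the others, each nearly doubled in the library with Dox. IGF2R and IGF1R were higher by smaller amounts, while IGFBP4, INSR and IRS1 lay close to their values without Dox. Of the 9 genes, 7 averaged 1 TPM or more over the pair of libraries, and IGFBP2 and IGFBP3 did not. Of these 7, 2 were at least 1.5-fold higher with Dox on the scale of TPM plus 1, where 5.32% of the 11582 genes compared were. None was at least 1.5-fold lower, where 3.9% of all genes were. The median log2 fold change was 0.36 over the 7 genes and 0.02 over all genes compared. Because the genes were chosen with earlier results of these data known, these comparisons describe them and are no test. At levels of 10 to 100 TPM, where 6 of the 7 lie, the same upward mark was passed by 3% of 6207 genes and the downward mark by 2.48%.

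**Figure D1:**
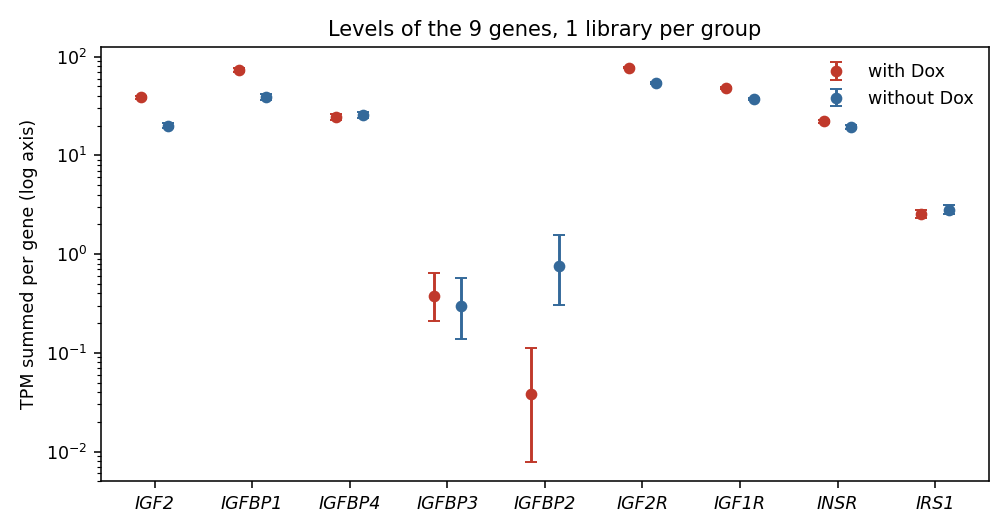
TPM summed per gene (log axis) for each of the 9 genes in the library with Dox (red) and the library without Dox (blue), with 95% counting intervals. IGF2 and IGFBP1 sit apart between the libraries, IGFBP4 and IRS1 have overlapping intervals, and IGFBP2 and IGFBP3 lie below 1 TPM.

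The ligand IGF2 (ENSG00000167244) lies on the minus strand of chromosome 11, at chr11:2129112-2149603 in GRCh38. It was at 38.8 TPM with Dox (37.4 to 40.2) and 19.9 TPM without Dox (18.8 to 21.1). The log2 fold change was 0.93, larger than that of 98.0% of the genes compared. The depth-corrected ratio of estimated fragments, called the fragment ratio below, was 1.89 (1.77 to 2.02). IGF2 was therefore well above its level without Dox relative to counting error, the only error that can be estimated here.

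The IGF2 difference lay in every one of its 4 most abundant transcripts and not in a single form. IGF2 transcripts differ in their first exon, because the gene has several promoters, and they largely share the exons that code for the hormone. The 5 detected forms have coding lengths of 540 or 549 nt. IGF2-203 (ENST00000381395), whose first base is at position 2137290, was the leading form, at 23.1 TPM with Dox and 13.7 TPM without Dox. IGF2-204 (ENST00000381406), which starts farther upstream at 2138974, was at 9.53 TPM with Dox and 3.47 TPM without Dox, a fragment ratio of 2.67 (2.31 to 3.09). IGF2-205 (ENST00000416167), which starts at 2139389 and shares the end of its first exon with IGF2-204, was at 3.18 TPM with Dox and 1.51 TPM without Dox. The short IGF2-206 was at 2.71 TPM with Dox and 0.84 TPM without Dox, on only 32 and 8 estimated fragments.

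Taken by start, the 3 transcripts that begin near 2137290 held 67.2% of the IGF2 TPM with Dox and 75.0% without Dox. IGF2-204 held 24.6% with Dox and 17.4% without Dox, and IGF2-205 held 8.20% with Dox and 7.57% without Dox. IGF2-201 and IGF2-207, which start still farther upstream, were listed at 0 in both libraries. IGF2-204 and the scarce IGF2-202 also carry 9 extra coding bases, 549 against 540, and together they held 25.1% of the IGF2 TPM with Dox and 19.4% without Dox. The largest share shift of any IGF2 transcript was 9.20 percentage points. The median of the largest shifts over 7723 genes was 7.90 points. These genes were detected in both libraries at a mean TPM of at least 5, with at least 2 transcripts at 1 TPM or more. IGF2-203, IGF2-204 and IGF2-205 share their last exon, so their split rests on the fragments that reach a first exon or the extra bases. IGF2-206 and IGF2-202, at 934 and 1005 nt, also end before the others.

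Around the locus, the 3 IGF2 mRNA-binding proteins, fetal RNA-binding proteins that many tumours express, moved little. IGF2BP1 was at 94.9 TPM with Dox and 89.4 TPM without Dox, IGF2BP2 at 103 TPM with Dox and 94.8 TPM without Dox, and IGF2BP3 at 45.0 TPM with Dox and 47.0 TPM without Dox. HMGA2, an architectural chromatin protein of fetal and tumour cells, was at 188 TPM with Dox and 192 TPM without Dox. Of the 11 genes on this list, 8 passed a mean of 1 TPM, with a median log2 fold change of 0.00. None of the 8 differed by 1.5-fold, where 5.32% of all genes did upward and 3.9% downward. H19 and IGF2-AS, transcribed beside IGF2, were not analysed here. INS-IGF2, the read-through transcript of the neighbouring insulin gene, was listed at 0 in both libraries, and so was INS. IGF1, the other IGF ligand, was at 0.11 TPM with Dox and 0.17 TPM without Dox.

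Among the binding proteins, IGFBP1 carried most of the difference. IGFBP1 (ENSG00000146678, chr7:45888357-45893668, plus strand) was at 73.1 TPM with Dox (69.8 to 76.5) and 39.2 TPM without Dox (36.5 to 42.0). Its log2 fold change was 0.88, and its fragment ratio was 1.81 (1.67 to 1.98). A single coding transcript, IGFBP1-201, held 99.8% of the TPM with Dox and all of it without Dox, so no choice among isoforms enters this value.

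IGFBP4, a binding protein that restrains IGFs until the protease PAPP-A cuts it, was level. IGFBP4 (ENSG00000141753, chr17:40443461-40457731, plus strand) was at 24.6 TPM with Dox (23.0 to 26.3) and 25.8 TPM without Dox (23.9 to 27.8). Its only listed transcript gave a fragment ratio of 0.93, with an interval of 0.84 to 1.02 that includes 1.

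IGFBP3, the main carrier of IGFs in serum, and IGFBP2, a carrier abundant in fetal life, were barely detected. IGFBP3 (ENSG00000146674, chr7:45912245-45921874, minus strand) was at 0.38 TPM with Dox and 0.30 TPM without Dox, about 14 and 9 fragments. All of the IGFBP3 signal with Dox was assigned to IGFBP3-201 and all of it without Dox to IGFBP3-203, but a gene ratio of 1.20 with an interval of 0.48 to 3.13 shows no difference detectable at this depth. IGFBP2 (ENSG00000115457, chr2:216632828-216664436, plus strand) was at 0.038 TPM with Dox and 0.75 TPM without Dox, about 3 and 7 fragments. Its fragment ratio of 0.33 had an interval of 0.055 to 1.44 that includes 1, while the counting intervals of its TPM, 0.0079 to 0.11 with Dox and 0.30 to 1.55 without Dox, did not overlap. The full-length coding form IGFBP2-201 was listed at 0 in both libraries, and the value without Dox came almost wholly from IGFBP2-204, a short form that starts inside the gene. IGFBP2-204 had 0 fragments with Dox and about 6 without Dox, a ratio interval of 0 to 0.65, so the measures do not settle whether IGFBP2 was lower.

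The other family members widen the picture. IGFBP7, a secreted relative that binds IGFs only weakly, was at 21.2 TPM with Dox and 16.8 TPM without Dox, and IGFBP5 was listed at 0 with Dox and at 0.15 TPM without Dox. IGFBP6, which prefers IGF2, was at 6.51 TPM with Dox and 11.7 TPM without Dox, a log2 fold change of -0.76. Transcripts of 600 nt or longer held 67.2% of its TPM, and over these the IGFBP6 fragment ratio was 1.06 (0.77 to 1.46), so its direction turned with the measure. Summed over IGFBP1 to IGFBP7, the TPM was 126 with Dox and 94.7 without Dox. IGFBP1 made up 58.1% of that sum with Dox and 41.4% without Dox, and IGFBP4 made up 19.6% with Dox and 27.2% without Dox. IGF2 and IGFBP1 kept nearly the same ratio of TPM to each other, 0.53 with Dox and 0.51 without Dox.

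**Figure D2:**
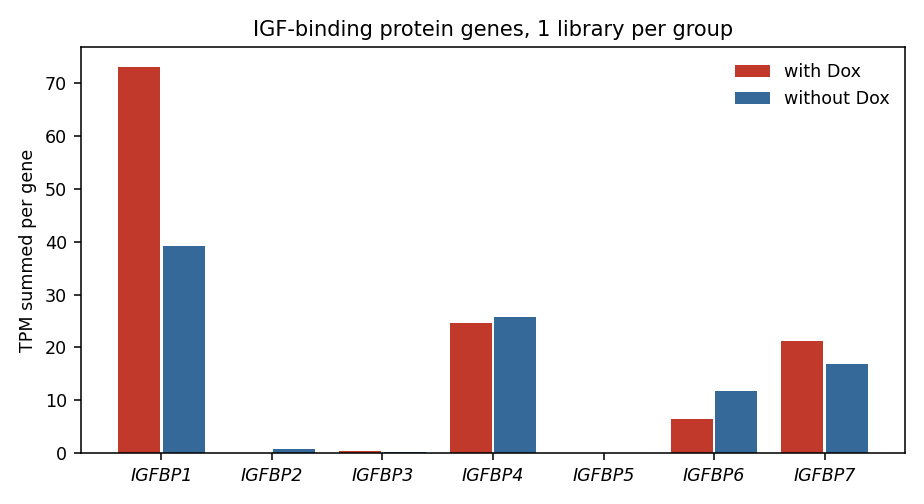
TPM summed per gene for the 7 IGF-binding protein genes, with Dox (red) beside without Dox (blue), 1 library each. IGFBP1 is the tallest bar in both libraries, at 73.1 TPM with Dox and 39.2 TPM without Dox, and IGFBP2, IGFBP3 and IGFBP5 are near 0.

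Of the genes that act on the binding proteins, STC2 was also higher with Dox. STC2 is a secreted glycoprotein that inhibits PAPP-A, and it was at 70.3 TPM with Dox and 37.0 TPM without Dox, a log2 fold change of 0.91. Its fragment ratio was 1.62 (1.54 to 1.70). The protease gene PAPPA itself was at 0.10 TPM with Dox and 0.07 TPM without Dox. STC2 was the only one of 6 listed genes of proteases and inhibitors to pass a mean of 1 TPM. IGFALS, the acid-labile subunit of the serum IGF complex, was listed at 0 in both libraries.

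The receptors were ordered IGF2R, IGF1R and INSR in both libraries. IGF2R (ENSG00000197081, chr6:159969099-160113507, plus strand) was at 77.1 TPM with Dox (75.8 to 78.4) and 54.5 TPM without Dox (53.3 to 55.7). Its log2 fold change of 0.49 stayed below the 1.5-fold mark, and its fragment ratio was 1.42 (1.38 to 1.46). The full-length coding transcript IGF2R-201 was at 47.6 TPM with Dox and 31.9 TPM without Dox. The retained-intron transcript IGF2R-207, which starts inside the gene and codes for no annotated protein, was at 20.7 TPM with Dox and 15.9 TPM without Dox. Retained-intron forms made up 27.1% of the IGF2R TPM with Dox and 29.7% without Dox, so both the coding and the retained-intron forms were higher with Dox.

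IGF2R was set beside the sorting machinery it belongs to. M6PR, the cation-dependent receptor for the same sugar tag, was at 92.2 TPM with Dox and 83.2 TPM without Dox. VPS35 and VPS29, subunits of the retromer that returns such receptors from endosomes, had log2 fold changes of -0.10 and -0.04. The fragment ratio of VPS35 was 1.13 (1.09 to 1.18), so its direction turned with the measure. None of the 11 genes of mannose 6-phosphate sorting differed by 1.5-fold, where 5.32% of all genes did upward and 3.9% downward. Their median was -0.01. M6PR was looked up after its values were seen.

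IGF1R (ENSG00000140443, chr15:98648539-98964530, plus strand) was at 48.3 TPM with Dox (47.4 to 49.2) and 37.4 TPM without Dox (36.5 to 38.3). The log2 fold change was 0.36, and the fragment ratio 1.22 (1.18 to 1.26). Part of the TPM difference came from the 310 nt transcript IGF1R-216, at 1.22 TPM with Dox and listed at 0 without Dox. Nearly all of the rest was split between 2 full-length forms that differ by 3 bases at the start of exon 14, at chr15:98929558-98929560. The 2 junctions are shown because only fragments that cross them tell these forms apart. The sequences are those of GENCODE release 29 (GRCh38), 5′ to 3′ on the coding strand, with the 3 bases in capitals.
IGF1R-219: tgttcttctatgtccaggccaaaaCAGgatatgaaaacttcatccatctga
IGF1R-218: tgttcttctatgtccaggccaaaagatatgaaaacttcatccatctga
IGF1R-219, with the 3 bases, was at 29.9 TPM with Dox and 22.7 TPM without Dox. IGF1R-218, without them, was at 16.6 TPM with Dox and 14.4 TPM without Dox. The form with the 3 bases thus held 64.3% of the pair with Dox and 61.2% without Dox.

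INSR (ENSG00000171105, chr19:7112255-7294034, minus strand), the insulin receptor, differed little as a gene and more in its isoforms. The gene was at 22.2 TPM with Dox (21.4 to 23.0) and 19.3 TPM without Dox (18.5 to 20.1), a log2 fold change of 0.19. In fragments the ratio was 1.01 (0.96 to 1.07), so the small TPM difference is not seen on that measure. INSR is spliced into a form without exon 11, which binds IGF2 well and is typical of fetal and tumour cells, and a form with exon 11, which prevails in adult liver. Exon 11 has 36 bases, at chr19:7150497-7150532, and is shown in capitals between the neighbouring exons, from the same source.
INSR-201: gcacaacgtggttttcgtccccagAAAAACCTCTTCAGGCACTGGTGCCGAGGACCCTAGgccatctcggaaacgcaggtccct
INSR-202: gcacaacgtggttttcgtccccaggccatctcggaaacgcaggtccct
INSR-202, without exon 11, was the main form in both libraries, at 16.0 TPM with Dox and 16.3 TPM without Dox. INSR-201, with exon 11, was at 4.44 TPM with Dox and 2.38 TPM without Dox. The form with exon 11 made up 21.8% of the pair with Dox and 12.7% without Dox, a difference of 9.05 percentage points. In estimated fragments it made up 12.5% with Dox and 6.93% without Dox, and its own fragment ratio was 1.81 (1.498 to 2.20). The deposited version of INSR-201 is not the annotated one used for its length. The fragment shares, and the gene ratio that uses the same length, are thus less certain than the TPM values. The 2 annotated forms also end at different positions, so exon 11 is not the only stretch that can separate them. Another form, the 653 nt INSR-206, was at 1.76 TPM with Dox and 0.55 TPM without Dox, on about 12 and 3 fragments. The largest share shift of any INSR transcript was that of INSR-202, 12.8 points lower with Dox. Of the genes examined for isoforms, 72.0% had a smaller largest shift, and the median was 7.90 points. As shares of the whole gene, INSR-201 was 7.68 points higher with Dox and the scarce INSR-206 was 5.12 points higher.

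**Figure D3:**
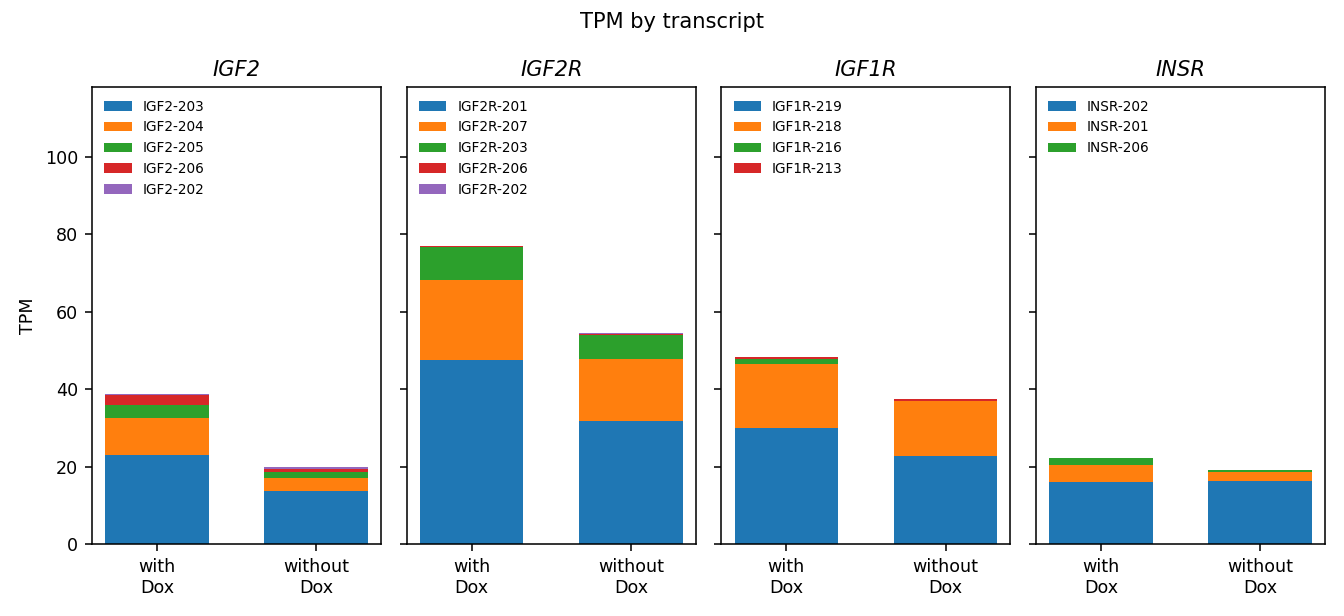
TPM of each transcript stacked per gene, with Dox on the left and without Dox on the right of each panel, 1 library each. The IGF2 stack with Dox is taller in each of its 4 most abundant forms, and in INSR the form with exon 11 (INSR-201) is thicker with Dox while INSR-202 is nearly level.

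IRS1 (ENSG00000169047, chr2:226731317-226799759, minus strand), the docking protein that the receptors phosphorylate, was scarce. It was at 2.58 TPM with Dox (2.34 to 2.83) and 2.82 TPM without Dox (2.54 to 3.11), a log2 fold change of -0.09. The fragment ratio of 0.89 had an interval of 0.78 to 1.02, so no difference was detectable beyond counting error. The other IRS family genes were lower still, with IRS2 at 0.08 TPM with Dox and 0.07 TPM without Dox and IRS4 listed at 0 in both libraries.

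By level per length, the order with Dox was IGF2R, IGFBP1, IGF1R, IGF2, IGFBP4, INSR, IRS1, IGFBP3 and IGFBP2. Without Dox it was IGF2R, IGFBP1, IGF1R, IGFBP4, IGF2, INSR, IRS1, IGFBP2 and IGFBP3. The counting intervals of IGF2R and IGFBP1 overlapped with Dox, and those of IGFBP1 and IGF1R, of IGF2 and INSR, and of IGFBP2 and IGFBP3 overlapped without Dox. The exchange between IGF2 and IGFBP4 lay outside counting error in both libraries. IGF2R exceeded IGF2 by a ratio of 1.99 in TPM with Dox and 2.74 without Dox, and IGF1R exceeded INSR by 2.18 with Dox and 1.94 without Dox.

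**Figure D4:**
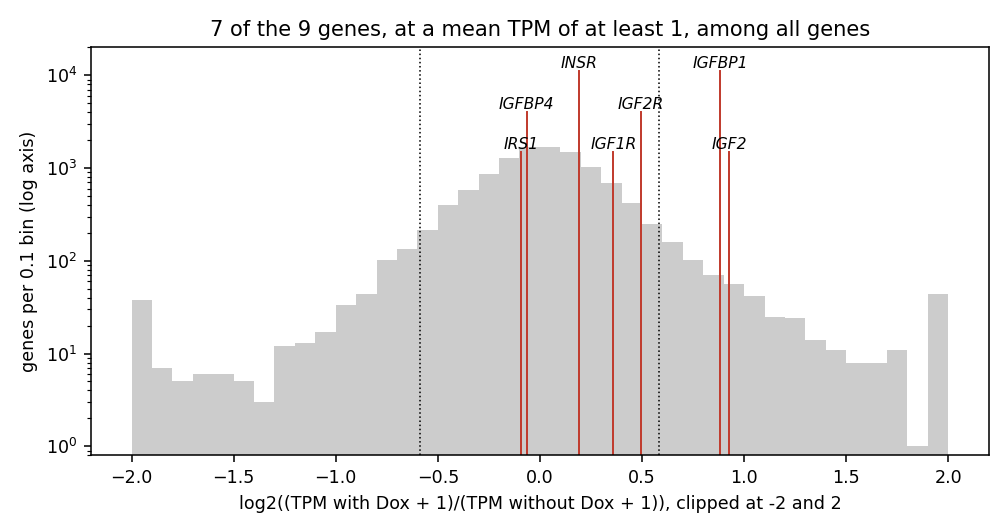
Log2 fold change of the 11582 genes compared (grey, number of genes per bin on a log axis) with 7 of the 9 genes as red lines and the 1.5-fold marks dotted. IGF2 (0.93) and IGFBP1 (0.88) lie beyond the upper mark, and the other 5 lie inside both marks.

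Downstream and around the receptors, 108 further genes of IGF and insulin signalling were listed in 10 groups, with earlier results of these data known. Of the 78 that passed a mean of 1 TPM, 2 passed 1.5-fold upward with Dox and 3 downward, shares of 2.56% and 3.85%, where all genes gave 5.32% and 3.9%. The higher genes were STC2 and GRB14, and the lower ones IGFBP6, PIK3R2 and PIK3R3. GRB14, an adaptor that blocks the insulin receptor kinase, was at 4.52 TPM with Dox and 1.40 TPM without Dox, but its fragment ratio of 1.39 had an interval of 0.92 to 2.14. GRB14 and PIK3R3, both under a mean of 5 TPM, were named after their values were seen.

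Among the receptor brakes, 6 of the 8 measured genes were above their value without Dox, where 53% of all genes were, and the median log2 fold change was 0.27. ENPP1, a membrane pyrophosphatase known to inhibit the insulin receptor, was at 82.9 TPM with Dox and 61.4 TPM without Dox, with a fragment ratio of 1.25 (1.20 to 1.29). PTPRF, a receptor tyrosine phosphatase, was at 60.1 TPM with Dox and 65.4 TPM without Dox. Among the adaptors, SHC1, which links receptors to RAS signalling, was at 117 TPM with Dox and 87.8 TPM without Dox, and its partner GRB2 was at 107 TPM with Dox and 121 TPM without Dox. The 6 measured adaptors and receptors beyond the 9 genes had a median of -0.05.

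In the PI3K and AKT group, 5 of 13 measured genes were higher and 8 were lower, where 53% of all genes were higher, and the median was -0.03. PIK3R2, a regulatory subunit of PI3K, was at 17.5 TPM with Dox and 28.96 TPM without Dox, with a fragment ratio of 0.55 (0.51 to 0.60). PIK3R3, a related subunit, was at 1.09 TPM with Dox and 2.29 TPM without Dox, with a ratio of 0.57 (0.43 to 0.74). The kinase AKT2 was at 44.2 TPM with Dox and 52.0 TPM without Dox, and PDPK1, which phosphorylates AKT, was at 56.5 TPM with Dox and 66.3 TPM without Dox. None of the 15 genes of the mTOR branch passed 1.5-fold, where 5.32% of all genes did upward and 3.9% downward, and the median there was -0.02. RHEB, the GTPase that activates mTOR complex 1, was at 102 TPM with Dox and 96.6 TPM without Dox, and the translation repressor EIF4EBP1 was at 85.4 TPM with Dox and 81.2 TPM without Dox.

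FOXO factors and genes that insulin represses had 7 of 8 measured genes higher and a median of 0.22, where 53% of all genes were higher. None of the 8 passed 1.5-fold, where 5.32% of all genes did upward and 3.9% downward. The exception and the largest difference was SESN1, a stress-induced sestrin, at 19.1 TPM with Dox and 27.7 TPM without Dox, a log2 fold change of -0.52. Its fragment ratio of 0.66 (0.60 to 0.72) is past 1.5-fold downward. SESN1 was named after its values were seen. BCL6, a transcriptional repressor, was at 56.2 TPM with Dox and 42.6 TPM without Dox, with a fragment ratio of 1.42 (1.33 to 1.51). FOXO4, one of the factors themselves, was at 26.9 TPM with Dox and 23.4 TPM without Dox. The gluconeogenic genes PCK1 and G6PC1, which insulin represses along with IGFBP1 in liver, were too scarce to compare. PCK1 was at 0.15 TPM with Dox and 0.07 TPM without Dox, on about 11 and 4 fragments. G6PC1 was at 0.29 TPM with Dox and 0.28 TPM without Dox, on about 15 and 11 fragments. Of the glycogen and glucokinase group, 4 of 6 measured genes were higher, with a median of 0.09. In that group PYGL, the liver glycogen phosphorylase, was at 48.6 TPM with Dox and 55.2 TPM without Dox, and GSK3A, a kinase that inhibits glycogen synthase, at 32.6 TPM with Dox and 30.6 TPM without Dox.

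**Figure D5:**
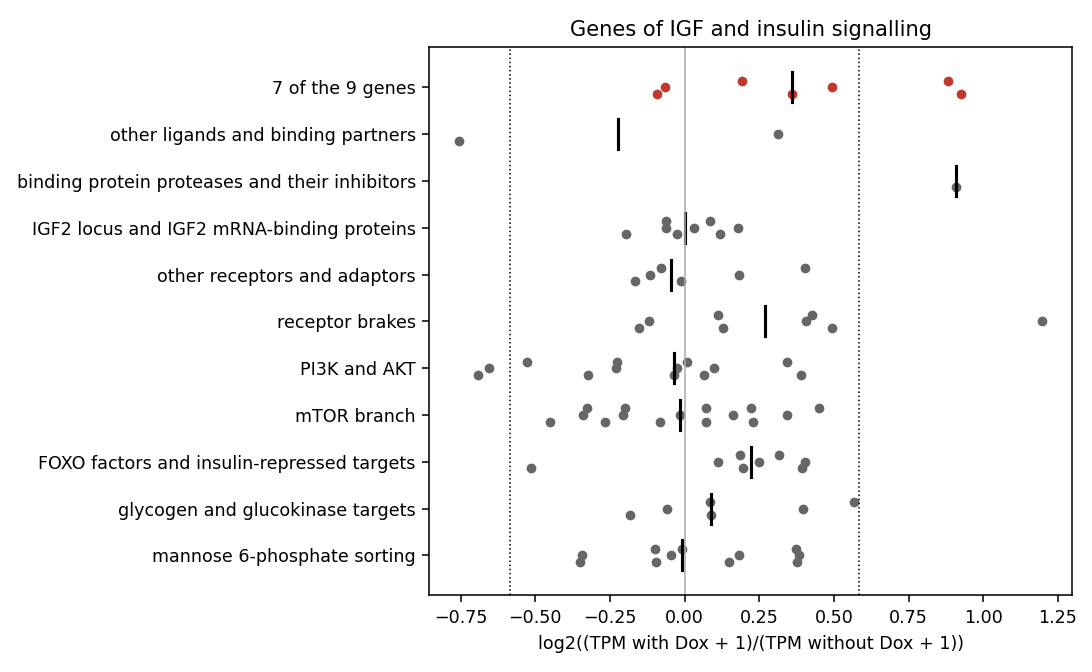
Log2 fold change of each gene at a mean TPM of at least 1, by group, with the median of each group as a black bar and the 1.5-fold marks dotted. The 7 genes in red have a median of 0.36, and the medians of the 8 groups with at least 6 measured genes lie between -0.05 and 0.27.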

How the data were processed

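The authors deposited TPM values for 184844 Ensembl transcripts in 1 table with 1 column per library. The submitters' processing notes name Trimmomatic, Salmon and the build GRCh38.p13. Neither tool versions nor an annotation release is given in the sources used here. Transcripts were matched to GENCODE release 29 by identifier without version (161798 matched, with 93.3% of the TPM in each library), and matched transcripts were summed per gene. Fragments on the 23046 unmatched transcripts could belong to these genes and are missed. Fold changes compare TPM plus 1 with Dox to TPM plus 1 without Dox on the log2 scale, so changes of low genes are understated. Genes averaging 1 TPM or more were compared, and 1.5-fold was counted. Salmon shares fragments among similar transcripts, so isoform values are less certain than gene values.

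Depth came from steps of low values in single-transcript genes of at least 600 nt. With an offset of 300 nt, 86.1% of 475 low values with Dox and 86.0% of 463 without Dox lay within 0.1 of a whole fragment, on fits to these same values. Ratios carry exact Clopper-Pearson 95% intervals and TPM values exact Poisson ones, for counting error only, and use transcripts of at least 600 nt. The deposited version differs from the annotated one for INSR-201, IGFBP1-201, IGFBP4-201, IGF2R-201, IRS1-201 and IGF2-205, and for transcripts of many pathway genes. Their lengths, estimated fragments and intervals are therefore approximate. Python 3.11.15, numpy 2.4.6, pandas 2.3.3 and scipy 1.17.1 were used. The procedure was tested on simulated whole fragments of the form the fit assumes. Errors in splitting fragments between transcripts, or in transcript lengths, were therefore not covered.

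The members and gene lists were chosen with earlier results of these data known. From each list, genes at a mean TPM of at least 5 were named if among the 4 most changed past 1.5-fold or the 2 most abundant. Alternatives changed the pseudocount, the minimum TPM, the transcripts summed, the scaling and the unit. No promoter sequence is printed for IGF2 or IGFBP1. A result that the lists cover is not reported here.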

Additional observations from a re-analysis of the deposited data

How the results depend on the processing

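Of the 9 genes, 2 (IGF2 and IGFBP1) were at least 1.5-fold higher under all 9 alternatives, with log2 fold changes of 0.81 to 0.96 and 0.82 to 0.90. The share of all genes past that mark ran from 2.03% to 7.23% over the same alternatives. The count of lower genes was 1 without a minimum on mean TPM, where IGFBP2 entered and 3.67% of all genes were lower by that fold. It was 0 under the other alternatives, where 1.5% to 5.52% of all genes were. INSR lay between 0.02 and 0.21, IGF1R between 0.29 and 0.38, and IGF2R between 0.46 and 0.55. All 9 genes kept their sign. Further pathway genes at least 1.5-fold higher numbered 4 of 78 with a pseudocount of 0.1 TPM, where 7.23% of all genes were. They numbered 3 of 78 after rescaling without mitochondrial transcripts, where 5.9% of all genes were. With a pseudocount of 5 TPM the count was 1 of 78 (2.03% of all genes), and with a minimum mean TPM of 5 it was 1 of 74 (3.72%). It was also 1 of 78 with transcripts of at least 600 nt only (4.36%) and in estimated fragments (4.85%). The lower ones numbered 1 with a pseudocount of 5 TPM (1.5% of all genes), and 2 with a minimum mean TPM of 5 (2.83%). They numbered 2 with transcripts of at least 600 nt only (2.95%), and 3 otherwise (3.46% to 5.52%). Among those 3, PIK3R1 stood in place of PIK3R3 with protein-coding transcripts only, and SESN1 in place of IGFBP6 in estimated fragments. Beyond fewer genes or transcripts tested, the cause was not tested. No paired analysis was possible because each group has 1 library. Depth limits IGFBP2 and IGFBP3, each at 14 or fewer estimated fragments per library.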

Other observations

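Some genes of the pathway differed without passing 1.5-fold on the scale of TPM plus 1, and were picked here after their values were seen. The kinase MTOR was at 12.9 TPM with Dox and 18.0 TPM without Dox, but its fragment ratio of 0.96 had an interval of 0.89 to 1.03. RICTOR, the scaffold of mTOR complex 2, was at 14.2 TPM with Dox and 10.2 TPM without Dox, with a fragment ratio of 1.33 (1.24 to 1.43). GRB10, an adaptor that restrains IGF1R and INSR, was at 22.1 TPM with Dox and 16.4 TPM without Dox, with a ratio of 1.29 (1.19 to 1.40). GYS1, the muscle-type glycogen synthase, was at 21.0 TPM with Dox and 13.8 TPM without Dox, with a ratio of 1.16 (1.03 to 1.31). GYS1 did pass 1.5-fold upward with a pseudocount of 0.1 TPM and after rescaling without mitochondrial transcripts.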
